A study of Mus musculus with 4 samples.

Results

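The YAP and TAZ coactivators, their 4 TEAD partners and 4 of their classical target genes were examined in EO771 cells, a mouse mammary carcinoma cell line, after exposure to extracellular A-FABP, the fatty acid binding protein of adipose tissue. The 10 genes were chosen by name: Yap1, Wwtr1 (which encodes TAZ), Tead1, Tead2, Tead3, Tead4, Ctgf, Cyr61, Ankrd1 and Amotl2. The array annotation lists Ctgf as Ccn2 and Cyr61 as Ccn1, and those symbols are used below. A probe set was taken only if its annotation names 1 gene, and where a gene had several, the brightest by its 4-array mean stands for it. All 10 genes were found, among 22180 genes in the table. Yap1 and Ccn2 had 2 such probe sets each, and the other 8 genes had 1.

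The A-FABP group was 2 cultures that received recombinant mouse A-FABP at 100 ng/ml, and the PBS control group was 2 cultures without it. RNA of each culture was hybridised to 1 single-colour array. All 4 cultures were EO771 cells grown without treatment for a day before A-FABP or PBS was added. They represent 1 cell line, and the sources used here do not state how long the exposure lasted. A-FABP is also mentioned in the description field of the control arrays, whose titles and source names make them controls, as does the series design. The comparison asks which transcripts of carcinoma cells differ after exposure to a lipid chaperone that adipocytes and macrophages release.

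YAP and TAZ are paralogous coactivators that do not bind DNA themselves and act through the TEAD transcription factors. The Hippo kinase cascade, in which MST kinases activate LATS kinases, phosphorylates YAP and TAZ, keeps them out of the nucleus and promotes their degradation, so their activity is set largely after transcription and is commonly read from target transcripts. In mammary epithelium and breast cancer cells the pathway is known for its response to cell density, matrix stiffness and serum lipids, and TAZ for its role in stem-like properties.

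TEAD factors recognise the core CATTCC, which reads GGAATG on the other strand. The 250 bases before the transcription start are shown for the 3 target genes with an entry in the RefSeq promoter table (build GRCm38.p6), because these genes are the readout of the pathway and their promoters are where such cores are classically described. Capitals mark each CATTCC or GGAATG, and the sequences run 5′ to 3′ on the gene's strand. The windows are chr3:145649986-145650235 (minus strand) for Ccn1, chr9:102717554-102717803 (plus strand) for Amotl2 and chr19:36119845-36120094 (minus strand) for Ankrd1.
Ccn1: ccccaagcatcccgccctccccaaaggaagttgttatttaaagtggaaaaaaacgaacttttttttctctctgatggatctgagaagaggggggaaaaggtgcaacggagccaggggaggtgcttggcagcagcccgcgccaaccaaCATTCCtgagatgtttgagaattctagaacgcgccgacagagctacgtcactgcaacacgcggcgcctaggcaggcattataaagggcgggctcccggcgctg
Amotl2: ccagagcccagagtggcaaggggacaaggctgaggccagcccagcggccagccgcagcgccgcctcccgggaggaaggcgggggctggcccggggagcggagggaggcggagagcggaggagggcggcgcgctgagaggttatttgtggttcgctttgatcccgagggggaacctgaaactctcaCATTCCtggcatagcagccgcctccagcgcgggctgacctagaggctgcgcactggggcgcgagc
Ankrd1: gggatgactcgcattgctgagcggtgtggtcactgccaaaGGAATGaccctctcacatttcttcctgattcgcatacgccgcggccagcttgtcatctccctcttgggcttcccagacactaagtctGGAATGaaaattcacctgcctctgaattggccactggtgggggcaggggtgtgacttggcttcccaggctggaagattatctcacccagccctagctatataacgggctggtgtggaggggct

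The core begins 103 bases before the start in Ccn1 and 65 bases before it in Amotl2, both as CATTCC. The start in the Amotl2 entry lies inside the annotated span of the gene, downstream of its first base, so its window is not that of the outermost start. Ankrd1 holds 2 copies, both as GGAATG, which begin 210 and 123 bases before the start. Entries were found for 7 of the 10 genes, and Tead1, Tead4 and Ccn2 have none. The core was also present in a window of Yap1 (141 bases before the start), Wwtr1 and Tead3, and not in that of Tead2, so that 6 of the 7 genes held it. Among all 32851 promoter windows of this length, 12.6% held the core on either strand, and 14.4% of the 27025 genes held it in at least 1 window. A match of 6 letters is a description of the sequence and no measurement of TEAD binding.

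As a group, the 10 genes differed little between cultures with A-FABP and with PBS. Values are log2 expression as deposited, and differences are A-FABP minus PBS on that scale, fitted with limma over all 41345 probe sets. None of the 10 passed the limma threshold of an adjusted p under 0.05, a threshold that 0% of all probe sets passed, and none had an unadjusted p under 0.05, where 13% of all genes did. The differences ran from -0.30 for Ccn2 to 0.25 for Ankrd1, with a median of -0.09 against -0.01 over all genes. Every 95% confidence interval of the 10 representative probe sets included 0. Below 0 lay 6 genes and above it 4, where 52.4% of all genes lay below 0. The arrays of the 2 groups did not overlap in 8 of the 10 genes, with A-FABP below PBS in 4 and above PBS in 4, where 53.5% of all genes showed groups without overlap (27.5% lower and 26% higher). That balance depended on the scaling, with 6 below and 3 above after repeated quantile normalization. The share of all genes without overlap was not counted after that scaling. With 2 arrays a group, exact permutation of 1 gene cannot reach a two-sided p below 0.333. Since whole cultures were measured, a change in the share of cells that express a gene and a change in RNA per cell cannot be told apart.

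**Figure D1:**
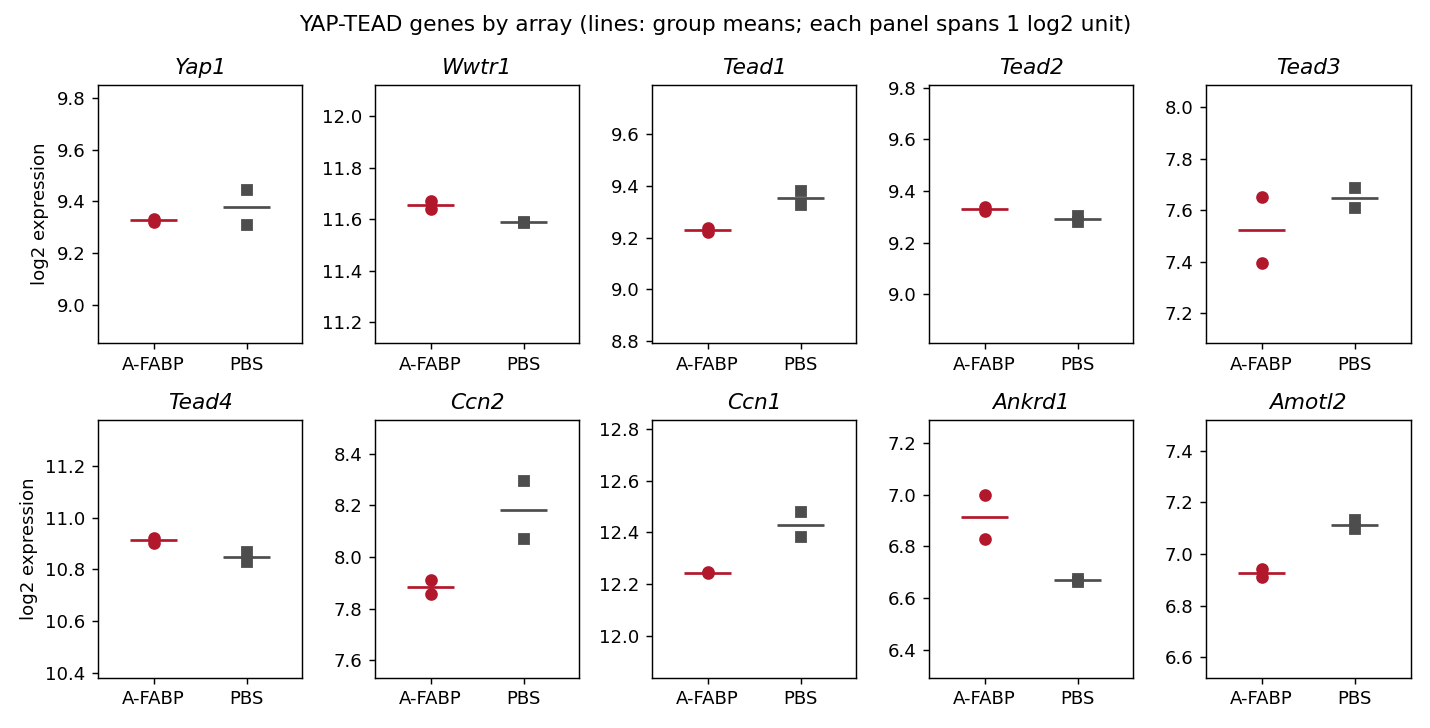
Log2 expression of each of the 10 genes on every array, with A-FABP (circles) left of PBS (squares) and group means as lines; each panel spans 1 log2 unit around the gene's mean. A-FABP arrays lie under the controls in Tead1, Ccn2, Ccn1 and Amotl2, above them in Wwtr1, Tead2, Tead4 and Ankrd1, and among them in Yap1 and Tead3.

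At their representative probe sets the group means of both coactivator transcripts differed by at most 0.07. Yap1 read 9.33 and 9.32 on the A-FABP arrays and 9.44 and 9.31 on the PBS arrays. The groups overlapped, because PBS replicate 2 lay below both A-FABP arrays. The Yap1 difference was -0.05 ± 0.09 (SE, 2 arrays per group; 95% CI -0.30 to 0.20; limma adjusted p = 0.813), and 0.015 after median centring. Wwtr1 read 11.64 and 11.67 with A-FABP against 11.59 and 11.58 with PBS. The A-FABP arrays were the higher ones, by a gap of 0.05. The Wwtr1 difference was 0.07 ± 0.08 (95% CI -0.15 to 0.28; limma adjusted p = 0.699). For a coactivator controlled by phosphorylation, these values describe transcript supply and not activity.

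The second probe set of Yap1 read differently. It was dim, reading 3.92 and 4.23 with A-FABP against 4.39 and 4.56 with PBS, below the median of all probe sets of 5.99. The A-FABP arrays were the lower ones, with no overlap. Its difference was -0.40 ± 0.15 (95% CI -0.81 to 0.01; limma adjusted p = 0.334), against -0.05 at the bright probe set. Which part of the Yap1 transcript each one reads is unknown here.

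The 4 TEAD factors, the DNA-binding partners, went in both directions by small amounts. Tead1 read 9.24 and 9.22 with A-FABP against 9.33 and 9.38 with PBS. The groups did not overlap, with A-FABP the lower, and the Tead1 difference was -0.13 ± 0.08 (95% CI -0.35 to 0.10; limma adjusted p = 0.493). Tead4 read 10.92 and 10.90 with A-FABP against 10.83 and 10.87 with PBS. With A-FABP the arrays were higher, by a gap of 0.03, and the difference was 0.06 ± 0.08 (95% CI -0.15 to 0.28; limma adjusted p = 0.714). Tead2 read 9.32 and 9.34 with A-FABP against 9.30 and 9.28 with PBS. The A-FABP arrays were again the higher ones, by a gap of 0.02, with a difference of 0.04 ± 0.08 (95% CI -0.18 to 0.25; limma adjusted p = 0.833), which was -0.023 after cyclic loess. Tead3 read 7.65 and 7.40 with A-FABP against 7.61 and 7.69 with PBS. Here A-FABP replicate 2 was the low array and replicate 1 lay between the controls, so the groups overlapped. The Tead3 difference was -0.12 ± 0.12 (95% CI -0.46 to 0.22; limma adjusted p = 0.646), and it was 0.0027 without A-FABP replicate 2.

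Over the 6 coactivator and TEAD genes the median difference was -0.01, with 3 genes below 0 and 3 above. Their 95% confidence intervals together reached from -0.46, at Tead3, to 0.28, at Wwtr1 and Tead4.

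The 4 target genes showed larger differences, in unlike directions: 3 lay below PBS and Ankrd1 lay above it. Ccn2 encodes CTGF, a secreted matricellular protein that is a widely used reporter of YAP activity. It read 7.86 and 7.91 with A-FABP against 8.07 and 8.30 with PBS. A gap of 0.16 separated the lower A-FABP arrays from the controls, and the 2 controls stood farther apart (SD 0.16) than the 2 A-FABP arrays (SD 0.04). The Ccn2 difference was -0.30 ± 0.11 (SE; 95% CI -0.61 to 0.02), a level 1.23-fold lower, with an unadjusted p of 0.0577 and an adjusted p of 0.339 in limma. Leaving out PBS replicate 2 moved it to -0.19 and leaving out PBS replicate 1 to -0.41.

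The other Ccn2 probe set was dimmer, with a mean of 5.57 against a median of 5.99 over all probe sets, and had the same direction. It read 5.39 and 5.21 with A-FABP against 5.65 and 6.04 with PBS. Again the A-FABP arrays were the lower ones, and PBS replicate 2 was the highest at both probe sets of Ccn2. Its difference was -0.55 ± 0.17 (95% CI -1.03 to -0.07), with an unadjusted p of 0.0340 and an adjusted p of 0.308 in limma. At an unadjusted p under 0.05, 8.24% of all genes were lower, and at low levels the running median of all genes lay below 0.

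Ccn1 encodes CYR61, the matricellular relative of CTGF, which binds integrins and is induced quickly by serum as well as by YAP. It was bright, reading 12.25 and 12.24 with A-FABP against 12.38 and 12.48 with PBS. The A-FABP arrays were lower by a gap of 0.14. The difference was -0.18 ± 0.08 (95% CI -0.42 to 0.05), or 1.14-fold lower, with an unadjusted p of 0.0930 and an adjusted p of 0.387 in limma.

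Amotl2 encodes an angiomotin family scaffold that binds YAP and restrains it, so it is both a target and a feedback inhibitor. It read 6.91 and 6.94 with A-FABP against 7.13 and 7.10 with PBS. Replicates were close in each group (SD 0.02 with A-FABP and 0.02 with PBS), and a gap of 0.15 separated the lower A-FABP arrays from the controls. The difference was -0.19 ± 0.08 (95% CI -0.40 to 0.03), or 1.14-fold lower, with an unadjusted p of 0.0763 and an adjusted p of 0.366 in limma.

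Ankrd1 encodes an ankyrin repeat protein best known from heart and skeletal muscle, and its transcript is a standard YAP readout in many cell lines. It read 6.998 and 6.829 with A-FABP against 6.662 and 6.675 with PBS. With A-FABP the arrays were higher by a gap of 0.15, the opposite order from the other 3 targets, and A-FABP replicate 1 was the highest. The difference was 0.25 ± 0.10 (95% CI -0.03 to 0.52), or 1.19-fold higher, with an unadjusted p of 0.0664 and an adjusted p of 0.351 in limma. Without A-FABP replicate 1 it was 0.16. The promoter windows above hold the TEAD core in Ccn1 and Amotl2, which lay lower with A-FABP, and in Ankrd1, which lay higher.

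**Figure D2:**
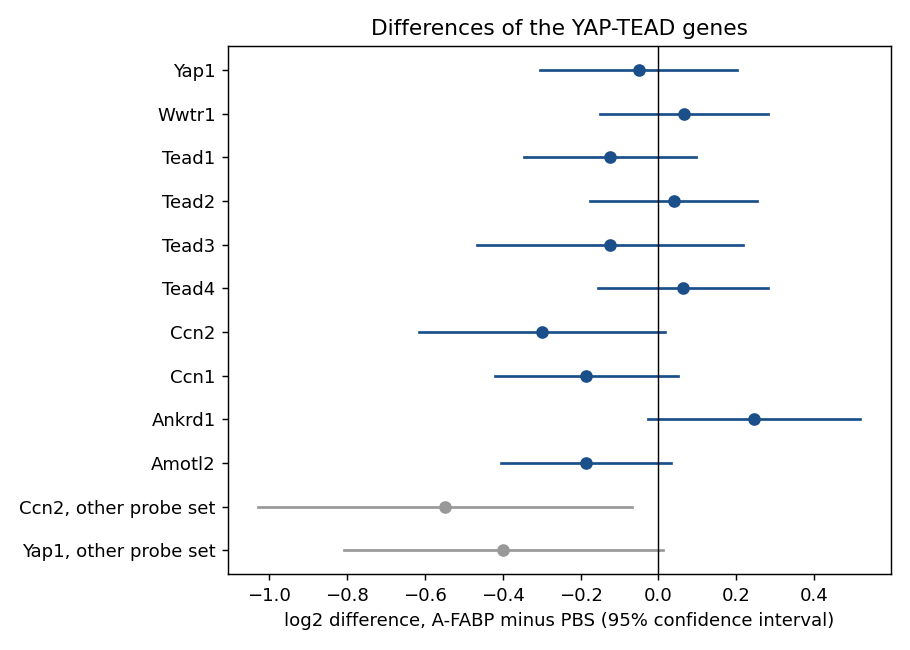
Log2 difference, A-FABP minus PBS, with its 95% confidence interval from limma for the 10 genes (blue) and for the other probe sets of Ccn2 and Yap1 (grey). All 10 blue intervals include 0, from Ccn2 at -0.30 to Ankrd1 at 0.25, and the grey interval of Ccn2 ends at -0.07.

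Differences over the whole table followed the mean level of a gene, so each gene was also set beside genes of its own level (within 0.5 log2 units of its mean). Around Ccn2 there were 2339 such genes with a median difference of 0.10 and quartiles of 0.01 and 0.19, against -0.30 for Ccn2. Around Ccn1 there were 259, with a median of 0.00 and quartiles of -0.04 and 0.04, against -0.18 for Ccn1. Both CCN genes thus lay below the lower quartile of their neighbours in level. Amotl2 also lay below the lower quartile, which was -0.13 for 2406 genes with a median of 0.02. Ankrd1 lay above the upper quartile, which was 0.11 for 2738 genes with a median of -0.04.

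Among the factors, Yap1, Tead1 and Tead3 lay below the lower quartiles of 0.00, 0.00 and -0.01 around them, and the medians of their neighbours were 0.07, 0.07 and 0.09. Tead2, Tead4 and Wwtr1 lay between the quartiles of theirs, with neighbour medians of 0.07, 0.03 and 0.02. This places the genes within the table as a description, and no test was made of it.

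**Figure D3:**
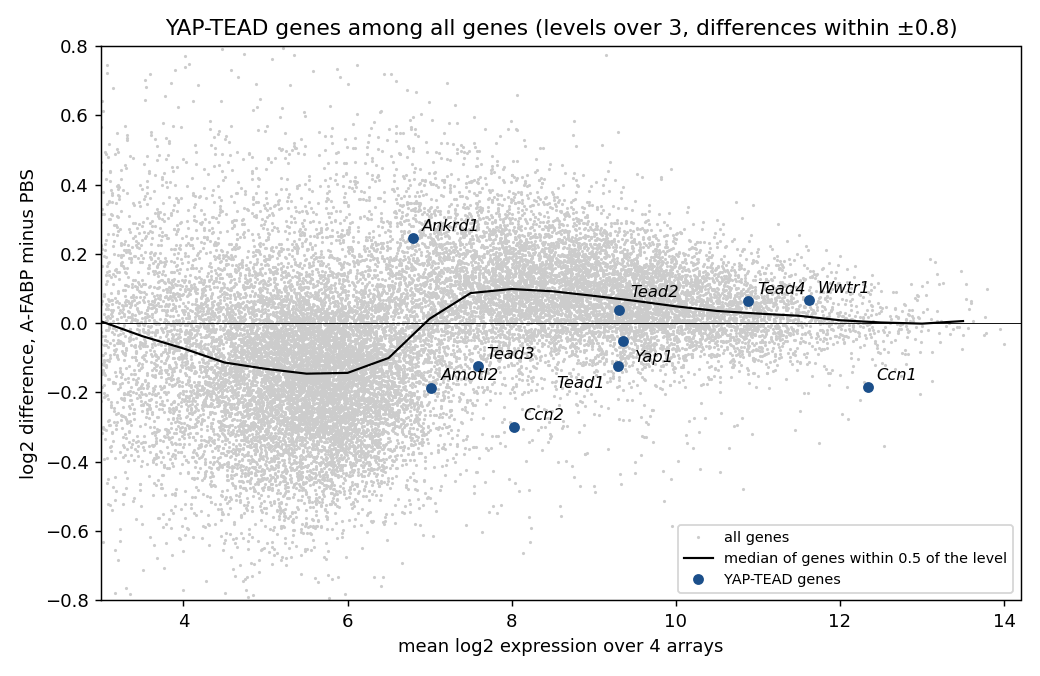
Log2 difference, A-FABP minus PBS, against the mean log2 expression over 4 arrays, for all genes (grey) and the 10 YAP-TEAD genes (blue), with the running median of genes within 0.5 of a level (line). The line lies below 0 at low levels and near 0.10 at the level of Ccn2, and Ccn2, Ccn1 and Amotl2 lie under it while Ankrd1 lies over it.

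The directions of the 4 targets held under all 11 other settings tried, with no adjusted p under 0.05. Ccn2 ranged from -0.41 to -0.19, Ccn1 from -0.23 to -0.12, Amotl2 from -0.22 to -0.12 and Ankrd1 from 0.16 to 0.33. Limma adjusted p-values over these settings ran from 0.215 to 0.636 for Ccn2, from 0.203 to 0.704 for Ccn1, from 0.205 to 0.616 for Amotl2 and from 0.217 to 0.617 for Ankrd1. Wwtr1, Tead1 and Tead4 also kept their direction, whereas Yap1, Tead2 and Tead3 changed sign under at least 1 setting. Most of the 11 settings could not have turned the direction of the 4 targets, Wwtr1, Tead1 or Tead4. The filter, the trend and robust settings and the replicate block leave a difference unchanged. Leaving out 1 array cannot turn the sign where the groups do not overlap, as in these genes. Median centring moved every difference up by 0.065, which is less than the size of any negative difference among these genes. For them only cyclic loess, repeated quantile normalization and removal of the trend on level could have turned a direction.

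**Figure D4:**
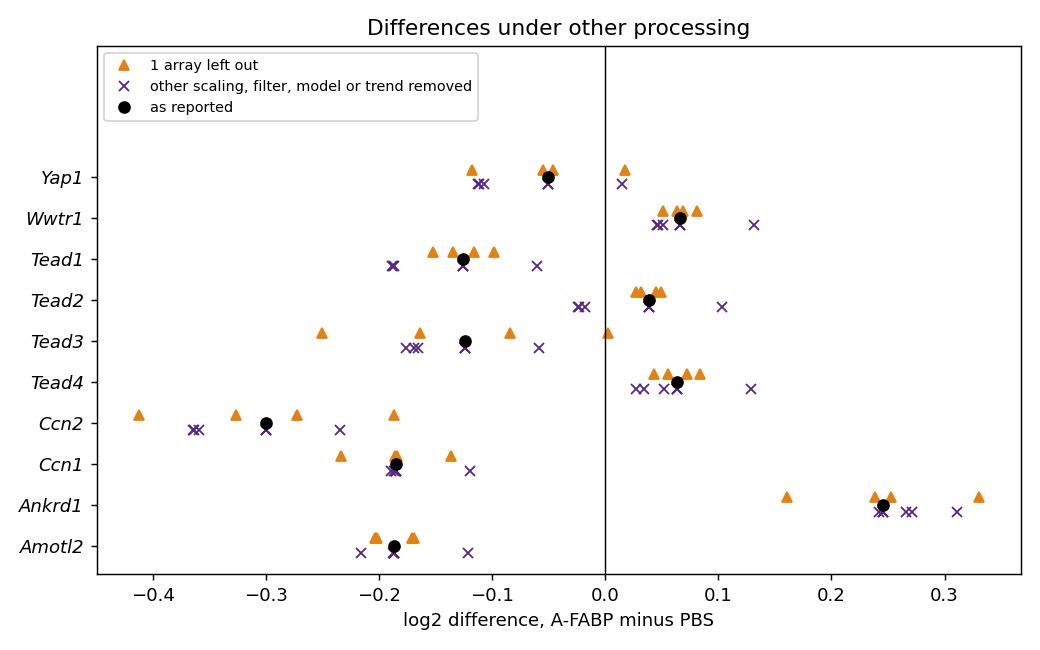
Log2 difference, A-FABP minus PBS, of each gene as reported (black), with 1 array left out (triangles) and under other scalings, filters, models or with the trend on level removed (crosses). Ccn2, Ccn1 and Amotl2 stay below 0 and Ankrd1 above 0 throughout, and the crosses or triangles of Yap1, Tead2 and Tead3 reach across 0.

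Other genes of the pathway were read from 4 lists chosen by name. The upstream regulators, 20 of 22 measured, had a median difference of 0.03 (-0.015 after cyclic loess), with 13 genes above 0 and 7 below, and none had an unadjusted p under 0.05 (8.24% of all genes were lower and 4.81% higher at that level). With trend and robust settings 2 were higher, after median centring 1 was higher, and without A-FABP replicate 1, 1 was lower. Shares of all genes were not counted under these settings. The 3 regulators with the lowest p lay above 0. Lats1, a kinase that phosphorylates YAP and TAZ, read 9.82 and 9.85 with A-FABP against 9.65 and 9.56 with PBS. The A-FABP arrays were the higher ones without overlap, with a difference of 0.23 ± 0.08 (95% CI -0.01 to 0.46; limma adjusted p = 0.335). Limd1, a LIM domain protein that binds LATS kinases, lay at 0.19 ± 0.10 (limma adjusted p = 0.417). Mob1b, an activating cofactor of LATS kinases, lay at 0.10 ± 0.09 (limma adjusted p = 0.605). Both also showed no overlap between groups. Of the 20 regulators, 3 were higher and 1 lower without overlap, against 26% and 27.5% of all genes. Their level was mostly high, with 18 of 20 over the all-probe-set median and a median level of 8.73. Around the levels of Ccn2 (8.03) and Yap1 (9.35), the median difference of all genes was also above 0, at 0.10 and 0.07.

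Among the cofactors of the Vgll family and the other angiomotins, 5 of 6 genes lay below 0, with a median of -0.14 (-0.068 without PBS replicate 2 and -0.077 after median centring). Their level was mostly low, with 2 of 6 over the all-probe-set median, and around the levels of the dim ones the median difference of all genes was also below 0. Vgll1, a TEAD-binding cofactor, was dim, reading 4.53 and 4.58 with A-FABP against 4.90 and 4.88 with PBS. The groups did not overlap, with a difference of -0.34 ± 0.08 (unadjusted p = 0.0133, adjusted p = 0.296 in limma), and it was the 1 gene of this list with an unadjusted p under 0.05, a level at which 8.24% of all genes were lower. That count was 0 with trend and robust settings and without A-FABP replicate 1, PBS replicate 1 or PBS replicate 2. Vgll2 lay at -0.25 ± 0.10 (limma adjusted p = 0.364) and Amot, which encodes angiomotin, at -0.15 ± 0.10 (0.494).

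Further YAP-TEAD target genes did not share 1 direction. Of 18 listed, 17 were measured, with 9 below 0, 8 above and a median of -0.01 (0.057 after median centring), against -0.01 over all genes. At an unadjusted p under 0.05 there were 2 lower and 0 higher, against shares of 8.24% lower and 4.81% higher over the 22180 genes. The lower count was 0 under each of the 3 other scalings, with a replicate block and without A-FABP replicate 2 or PBS replicate 1, and 1 without A-FABP replicate 1. The higher count was 3 with trend and robust settings. Shares of all genes were not counted under any of these settings. Ccdc80, a secreted matrix protein, read 5.31 and 5.33 with A-FABP against 5.69 and 5.55 with PBS. The A-FABP arrays were the lower ones, with a difference of -0.31 ± 0.09 (limma adjusted p = 0.302), and -0.17 at its other probe set. Foxf2, a forkhead transcription factor, lay at -0.44 ± 0.14 (limma adjusted p = 0.311), on arrays between 5.58 and 6.22. Dock5, which encodes an activator of Rac, read 10.16 and 10.23 with A-FABP against 10.02 and 9.85 with PBS. Its groups did not overlap, A-FABP being higher, and its difference was 0.26 ± 0.10 (limma adjusted p = 0.343).

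The remaining 4 genes of the CCN family, relatives of Ccn1 and Ccn2, had a median of -0.09, with 3 below 0 and none at an unadjusted p under 0.05. Of all genes 52.4% lay below 0, and 8.24% were lower and 4.81% higher at that p. Ccn4, a Wnt-induced member, lay at -0.28 ± 0.16 (limma adjusted p = 0.466), Ccn3 at -0.08 ± 0.10 (0.704) and Ccn5 at -0.09 ± 0.12 (0.750). The groups did not overlap in 1 of these 4, Ccn4, against 53.5% of all genes.

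**Figure D5:**
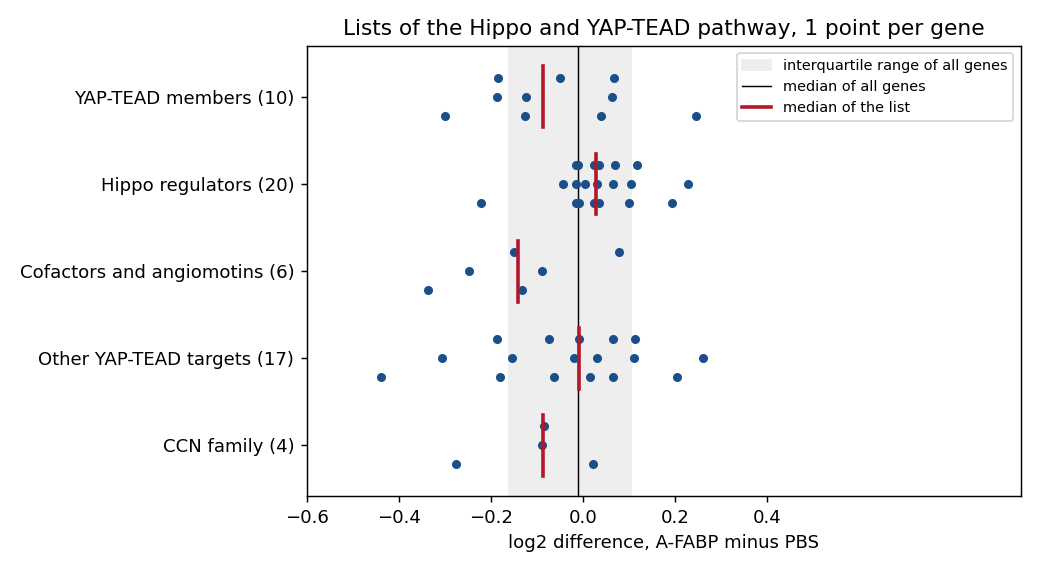
Log2 difference, A-FABP minus PBS, of every measured gene in each list (points; vertical scatter only separates them), with list medians (red), the median of all genes (black line) and the interquartile range of all genes (grey, -0.16 to 0.10). The upstream regulators have a median of 0.03 (-0.015 after cyclic loess), the cofactors and angiomotins of -0.14, and the further targets, at -0.01 (0.057 after median centring), spread from -0.44 to 0.26.

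Between replicates Pearson's r over all probe sets was 0.9906 for A-FABP and 0.9914 for PBS, and between groups it was 0.9853 to 0.9889. As a check of the cells, the luminal keratin gene Krt8 read 8.74 to 8.85 and the mesenchymal gene Vim 13.92 to 13.95, while Epcam lay at 4.45 to 5.05, below the median of all probe sets on every array. Krt8 and Vim were the brightest genes of their lists. Mean levels ran from 4.79 to 8.79 in the epithelial list, with a median of 6.09. In the mesenchymal or fibroblast list they ran from 4.58 to 13.94, with a median of 6.78. The median of all probe sets was 5.99. All 4 measured leukocyte markers lay below 0, with a median difference of -0.32 and a summed level (log2 of the linear sum) of 12.72 to 12.82 with A-FABP and 12.84 to 12.86 with PBS. That sum is carried by Cd68, at 12.70 to 12.84, with Ptprc at 3.996 to 4.578. Cd68, the 1 leukocyte marker over the median of all probe sets, differed by -0.08 ± 0.08. The other leukocyte markers were dim, and at low levels the running median of all genes also lay below 0. Of 5 mesenchymal or fibroblast markers 4 lay above 0 (median 0.19, summed level 14.14 to 14.17 with A-FABP and 14.16 to 14.17 with PBS). The epithelial list had a median of -0.14, with 4 of 6 below 0, and the endothelial and adipocyte lists had medians of -0.03 and 0.07. The part of these markers in the CCN, Amotl2 and Ankrd1 differences was not tested.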

How the data were processed

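The authors deposited log2 values, 1 for each probe set on each array, and the scale was read from the values themselves. Partek 6.6 and RMA, a background correction with quantile normalization and probe summary, are named in the submitters' processing notes. In the deposited values the array medians were 5.984 and 5.950 with A-FABP against 6.029 and 6.035 with PBS. Centring each array on its median moved every difference up by 0.065. Array design, genome build and probe positions: not given in the sources used here. Background flags were not used, so detection was not called, and the number of arrays limits the precision.

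Groups came from the titles, which call the arrays biological replicates. GEO's platform annotation named 1 gene for 23521 of 41345 probe sets, several for 1814 and none for 16010. The lmFit and eBayes functions of limma 3.58.1 (R 4.3.3) were run on the whole table, giving 2 residual and 1.91 prior degrees of freedom; p-values are two-sided and were adjusted by Benjamini-Hochberg. The fit was tested on simulated data. Alternatives were 3 scalings, a filter on dim probe sets, trend and robust settings, a replicate block, each array left out, removal of the trend on level, and other probe sets.

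The members and lists were chosen with earlier results of these data known. Besides the 10 members, the text names list genes at an unadjusted p under 0.05, or the 3 with the lowest p. Stk3, Taok1 and Gadd45a had no probe set of their own. Promoter sequences are from RefSeq, with 7 of 10 members matched.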

Additional observations from a re-analysis of the deposited data

How the results depend on the processing

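No member passed an adjusted p under 0.05 under any alternative, and 0 probe sets were called as deposited. Shares of all genes were counted only as reported, where 8.24% were lower and 4.81% higher at an unadjusted p under 0.05. Counts under the other settings therefore have no share of all genes beside them. The number of members at an unadjusted p under 0.05 was 0 as reported. On the lower side it was 1 after cyclic loess and 1 after repeated quantile normalization (Ccn2), 2 with trend and robust settings (Ccn2 and Ccn1) and 3 with the filter at the median level (Ccn2, Ccn1 and Amotl2). On the higher side it was 1 after median centring and 1 with the filter (Ankrd1). With 1 array left out it was 0 to 1 on the lower side, 1 being Ccn2 without PBS replicate 1. The members with A-FABP above both controls numbered 2 after cyclic loess and 3 after repeated quantile normalization, against 4, and those below both numbered 5 and 6, against 4. Shares of all genes without overlap were not counted under these scalings. Signs turned for Yap1 after median centring (0.015) and without PBS replicate 1 (0.017; -0.12 to 0.017 over arrays left out), for Tead2 after cyclic loess (-0.023), repeated quantile normalization (-0.018) and trend removal (-0.024), and for Tead3 without A-FABP replicate 2 (0.0027; -0.25 to 0.0027). The median of the upstream regulators turned to -0.015, -0.0098 and -0.010 after cyclic loess, repeated quantile normalization and trend removal, and with 1 array left out it was -0.0016 (without PBS replicate 1) to 0.054. The median of the further targets turned to 0.057, 0.0027, 0.048 and 0.0016 after median centring, cyclic loess, the filter and trend removal, and with 1 array left out it was -0.061 to 0.037, turning without A-FABP replicate 2 (0.00025) and PBS replicate 2 (0.037). The median of the cofactors and angiomotins stayed below 0, at -0.0056 with the filter and -0.21 to -0.068 with 1 array left out. The filter removes Vgll1, Ccdc80 and Foxf2, so 0 cofactors and 0 further targets were lower under it, and 1 upstream regulator and 1 further target were higher. After median centring 1 further target was higher. The CCN family median was -0.18 to 0.0040 with 1 array left out, turning without PBS replicate 1. The cause of these changes was not tested. Arrays with the same replicate number in their titles shared no deviation from their group means (correlation -0.0089 over probe sets). With 2 arrays a group, that value does not tell whether the cultures were handled in pairs. With a replicate block 0 members passed either threshold. Dim probe sets, such as the second ones of Yap1 and Ccn2, limit what can be read from their differences.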
